A study of Rattus norvegicus with 12 samples.

Results

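Lyz2, Apoe, Spp1 and Lgals3 were examined as 4 genes of macrophages and debris clearance in crushed rat sciatic nerve, by the row identifiers ENSRNOG00000005825, ENSRNOG00000018454, ENSRNOG00000043451 and ENSRNOG00000010645, which make up 4 of the 30562 gene IDs of the count table. RNA sequencing covered 12 libraries in 4 groups of 3. The control group had the crush injury alone by its labels, where the methods describe an injection of PBS, and comprised replicates 1, 4 and 9. The iPSC-Exos group (replicates 2, 3 and 5) received 10 µL of exosomes, small membrane vesicles released by induced pluripotent stem cells, at concentrations that the labels give as 103, 104 and 105 µg/mL. The study names 100 µg/mL as the concentration chosen for its animal work, so whether the concentration differed between animals is unclear. The LIPUS group (replicates 2, 6 and 7) received low intensity pulsed ultrasound at 250 mW/cm² and 1 MHz with a 20% duty cycle, for 5 minutes a day on 5 days a week over 4 weeks. The iPSC-Exos + LIPUS group (replicates 1, 2 and 3) received the same ultrasound and 10 µL of exosomes at 100 µg/mL. All groups were SD rats with a crushed nerve and no uninjured library was analysed here. The design text gives male animals of 5 weeks of age, without mention of ultrasound. The methods sample the nerve for sequencing before an ultrasound course of 4 weeks would end, so it is unclear on which day the ultrasound groups were sampled. The labels name whole brain as the tissue, whereas the extraction protocol names sciatic nerve, and this could not be checked with tissue markers because the table does not pair IDs with names.

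When an axon degenerates below a crush, macrophages enter the nerve and, together with Schwann cells, take up the fragments of myelin and axon before new axons grow through. Lyz2 encodes lysozyme, an antibacterial enzyme of macrophages and other myeloid cells. Apoe encodes a lipid carrier that moves cholesterol recovered from myelin, Spp1 encodes the secreted matrix protein osteopontin, and Lgals3 encodes galectin-3, a sugar-binding protein made by phagocytic cells.

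The 4 rows held almost no counts. In the rows given for Lyz2, Apoe and Lgals3 the count was 0 in each of the 12 libraries, and the row given for Spp1 held 7 counts in all. The label of macrophage and debris clearance genes therefore could not be checked against these values, and they are described as rows of the table. The pairing of these IDs with the 4 symbols was given with the choice of genes and was not checked, since the RefSeq table at hand lists 47357 rat genes of assembly GRCr8, of which 0 carry an Ensembl ID. The submitters' processing notes name Rnor 6.0 as the genome build, but the annotation release from which the IDs come is not given in the sources used here. No source shows that the gene positions used for counting belonged to the build used for alignment, so it is not established for any row of the table that its counts came from the gene its ID names. A count of 0 in a row is thus a statement about that row, and the level of the gene's RNA in the nerve cannot be read from it. In whole tissue, moreover, fewer macrophages and less RNA per macrophage cannot be told apart.

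The depth sets what a count of 0 allows. Totals lay between 1251715 counts in LIPUS replicate 2 and 1854545 in control replicate 9. A floor of 3 counts lay at 1.62 CPM (the count per 1000000 counts of the library) in control replicate 9 and at 2.40 CPM in LIPUS replicate 2, with the other 10 libraries between these values. For a row at 0, the upper bound of the 95% exact Poisson interval was 1.99 CPM and 2.95 CPM in these libraries. Control replicate 9 stood apart from the rest, since the ID ENSRNOG00000020644, named after its values were seen, took 32.5% of its counts (95% Wilson interval 32.4 to 32.5%) against 0.391 to 9.28% in the other 11 libraries. Without that ID, the floor of control replicate 9 was 2.40 CPM and the floors of all libraries lay between 2.01 and 2.45 CPM.

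Summed over the 3 libraries of a group, the floor for the Lyz2, Apoe and Lgals3 rows was 0.668 CPM in the control group, 0.773 CPM in the iPSC-Exos group, 0.721 CPM in the LIPUS group and 0.704 CPM in the iPSC-Exos + LIPUS group. Over all 12 libraries, with 0 of 16797697 counts, the floor was 0.179 CPM and the upper bound of the Poisson interval 0.22 CPM. For scale, the 4640 genes that passed the filter on low counts over the 12 libraries had a median of 54.5 CPM. The lowest total among these genes was 56 counts, against 0 in these 3 rows and 7 in the Spp1 row. Intervals and floors cover counting error only.

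A row at 0 was common among all IDs of the table. That background does not show which level these 4 genes would have in crushed nerve. Of the 30562 IDs, 16264 (53.2%) had 0 counts in all 12 libraries, as did 3 of the 4 rows here, and 5081 (16.6%) had a count in every library, as did 0 of the 4. The Spp1 row lay in the lower part of the 14298 IDs with any count, of which 5870 (41.1%) had a total of 7 or fewer. The median total of IDs with a count was 14.

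**Figure D1:**
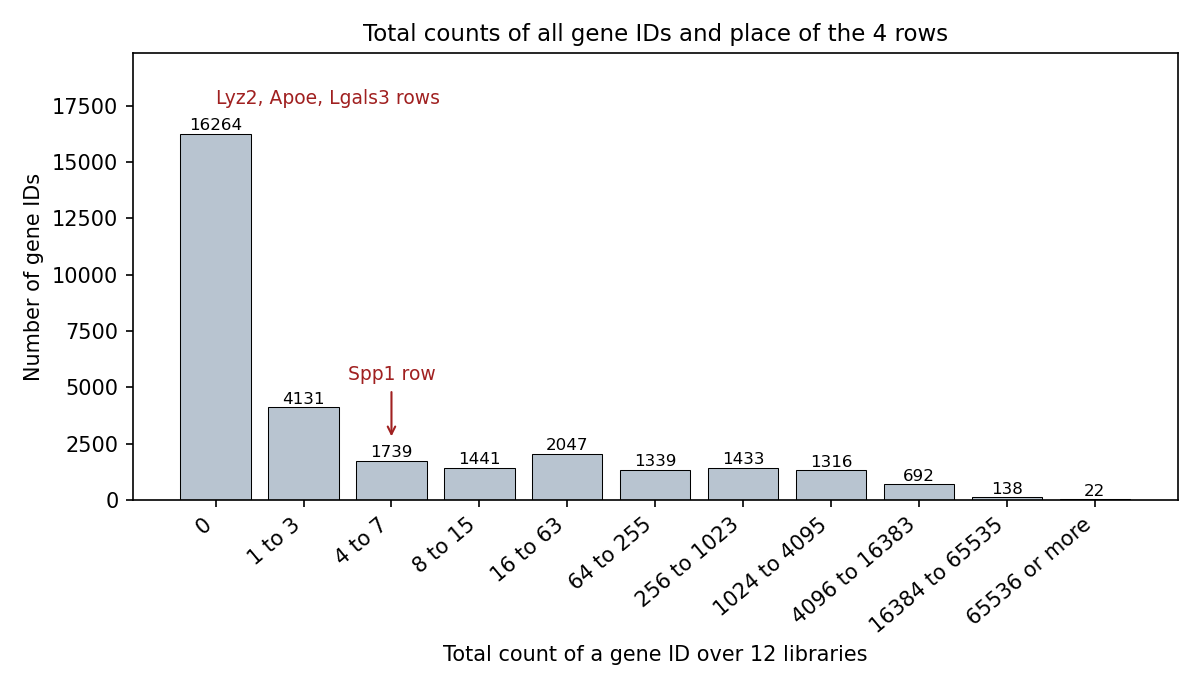
Number of gene IDs (vertical axis) by total count over the 12 libraries (horizontal axis, bins that widen to the right), with the bins of the 4 rows marked in red. The Lyz2, Apoe and Lgals3 rows lie in the bin of 16264 IDs at 0, and the Spp1 row in the bin of 1739 IDs with 4 to 7 counts.

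The Lyz2 row needs a further caution, because RefSeq lists a second lysozyme gene beside it. In the RefSeq table this gene, Lyc2, has Lyz2 among its synonyms and lies next to Lyz2 with 0 genes between them. The last 60 bases before the start of each gene are shown from RefSeq (GRCr8), 5′ to 3′, to show where the neighbours are alike, with the run that both share in capitals:
Lyz2: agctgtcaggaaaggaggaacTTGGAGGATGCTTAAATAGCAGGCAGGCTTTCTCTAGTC
Lyc2: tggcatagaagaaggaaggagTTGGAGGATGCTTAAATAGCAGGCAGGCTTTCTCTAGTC
The shared run covered 39 bases up to the start and went on through all 50 bases of the window after it, while over the 250 bases before the start 84 were identical position by position. Likeness of the 2 genes beyond these 50 bases was not examined, nor whether Lyc2 has a row of its own among the IDs. How any reads that match both copies were counted is not given in the sources used here, so the Lyz2 row is uncertain on this ground too. The symbol Spp1 also stands in the table as a synonym of another gene, Sgpp1, which encodes a phosphatase of sphingosine 1-phosphate. Apoe and Lgals3 are listed as a synonym of 0 other genes.

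The Spp1 row was counted in 4 of the 12 libraries. In the control group it had 2 counts in replicate 1 and 0 in replicates 4 and 9. In the iPSC-Exos group it had 0 counts in replicates 2, 3 and 5. It had 1 count in LIPUS replicate 7 and 0 in replicates 2 and 6, and in the iPSC-Exos + LIPUS group it had 0 counts in replicate 1 and 2 counts each in replicates 2 and 3. The groups overlapped, as every group held a library at 0 and no library exceeded 2 counts.

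On the CPM scale these counts were 1.50 in control replicate 1, 0.709 in LIPUS replicate 7, 1.30 in iPSC-Exos + LIPUS replicate 2 and 1.42 in replicate 3. Each lay under the level of 3 counts in its own library, and each 95% exact Poisson interval was wide, for example 0.181 to 5.40 CPM in control replicate 1. The intervals of all 12 libraries overlapped, so no order of the libraries or of the groups can be read from this row. Its scatter was usual for so few counts: of the 323 IDs with 7 counts in all, 109 were likewise counted in 4 libraries, which was also their median.

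**Figure D2:**
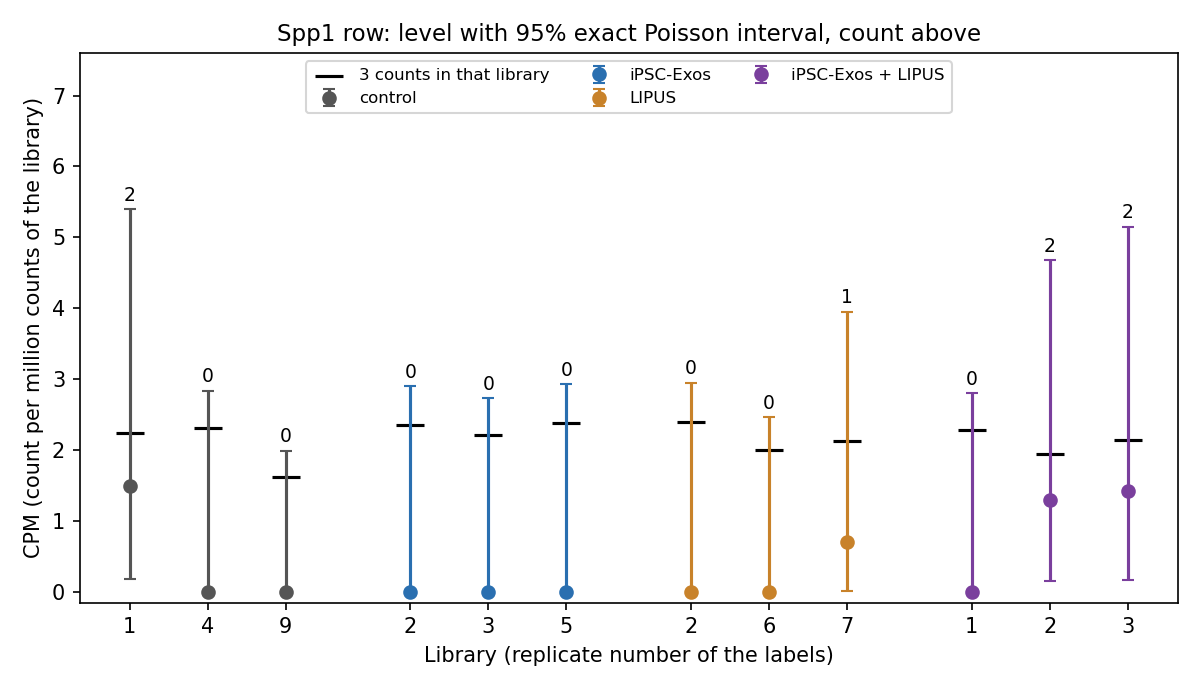
Level of the Spp1 row in CPM (vertical axis) in each of the 12 libraries (horizontal axis, replicate numbers of the labels, coloured by group), with 95% exact Poisson intervals, the count above each interval and a black dash at 3 counts. All 12 points lie under their dash, between 0 and 1.50 CPM, and all intervals overlap.

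To ask whether exosomes changed the rows, genes were compared between the iPSC-Exos and control groups with edgeR's quasi-likelihood test over the 6 libraries. A gene entered the test with 10 counts, scaled to the median total, in about 3 libraries, and 0 of the 4 rows did so. Consequently 0 of the 4 were called at an adjusted p under 0.05, where 0.0468% of the 4278 genes tested were called, and this count says nothing of whether the genes changed. For the Spp1 row the 2 groups differed only by the 2 counts of control replicate 1, which is under the floor, so no fold change is given.

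With all 12 libraries in one fit, the level needed was 7.44 CPM and again 0 of the 4 rows could be tested. The share of the 4640 genes called was 1.94% when the combined treatment was set against control, 2.24% when it was set against LIPUS and 5.3% when the libraries with iPSC-Exos were set against those without, with 0 of the 4 rows among them. It was 0% for LIPUS alone against control, for the combined treatment against iPSC-Exos alone, for the interaction of both treatments and for the libraries with against those without LIPUS. In these 4 comparisons edgeR found 113, 256, 196 and 183 genes at an unadjusted p under 0.05, and DESeq2 called 0, 21, 0 and 3 genes at an adjusted p under 0.05, none of them among the 4 rows.

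The Spp1 row was also compared by the libraries in which it was counted. It had a count in 2 of 6 libraries with iPSC-Exos and in 2 of 6 without (two-sided Fisher's exact test, p = 1.0). The summed counts were 4 and 3, a ratio of 1.42 per total count with a 95% interval of 0.24 to 9.67 from counting error alone. With ultrasound it had a count in 3 of 6 libraries and without in 1 of 6 (two-sided Fisher's exact test, p = 0.545). As only 4 libraries had a count, no split of them between 6 and 6 libraries could bring Fisher's test under 0.05. Neither of its p-values therefore bears on whether the row changed. The summed counts were 5 and 2, a ratio of 2.48 with an interval of 0.407 to 26.1. Differences of several fold in either direction lie inside the first interval, and the second includes a ratio of 1. A change of this row with exosomes or with ultrasound therefore could not be read from its 7 counts. In the second comparison, control replicate 1 held all the counts without ultrasound. When that library was left out, the row had 5 counts with ultrasound and 0 without. The lower bound of the interval then rose to 0.765 (two-sided Fisher's exact test on the libraries with a count, p = 0.182). With 3 libraries counted, this test could not fall under 0.05 either. The first changed direction without iPSC-Exos + LIPUS replicate 2, where the ratio was 0.874, and without replicate 3 of that group, where it was 0.856, and it was 3.59 without control replicate 1.

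Covariation between libraries could not be examined. A row at 0 throughout has no variation, so 0 of the 6 pairs of rows had a correlation, and a search for the IDs most like the Spp1 row in pattern would rest on 7 counts and was not made.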

How the data were processed

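Sample titles gave the group and replicate number, and each of the 12 columns was matched to its library by name, with 0 columns left unused. Paired-end reads were trimmed (Trimmomatic 0.38) and aligned (HISAT2 2.0.5) by the authors, who deposited the raw counts of each gene, not normalized. The processing notes also name SAMtools and StringTie. The counting tool and strand setting are not given in the sources used here. From these counts, CPM and exact Poisson intervals were computed for the 4 rows in Python (version 3.11.15, scipy 1.17.1). The whole table was filtered (filterByExpr), scaled (TMM) and tested by the quasi-likelihood method of edgeR 4.0.16 under R 4.3.3, and p-values were adjusted after Benjamini and Hochberg. DESeq2 (version 1.42.0) was an alternative. The fit was tested on simulated data. Replicates of a group differed by more than counting noise, with a chi-square of 5.10 to 115 per degree of freedom. Nothing says that replicates are separate rats beyond their numbers, so p-values measure the spread between these libraries. The 4 genes, the lists and the alternatives were chosen with earlier results of these data known. Lists of cell type markers and of further clearance genes were planned by symbol and not run, as were the planned genes of like pattern.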

Additional observations from a re-analysis of the deposited data

How the results depend on the processing

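Of the 4 rows, 0 were called at an adjusted p under 0.05 in all 8 comparisons and in their 144 fits under the alternatives. These zeros say nothing of stability, because only the Spp1 row could be tested, in the 16 fits with DESeq2 or without a filter. Its unadjusted p lay between 0.378 and 0.992 with DESeq2, where 5 of 8 adjusted p-values were not given, and between 0.104 and 0.666 in edgeR without a filter, where the adjusted p lay between 0.728 and 1, so it missed the study's own threshold, an unadjusted p of at most 0.05, in all 16.

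With a replicate block for the combined treatment against iPSC-Exos alone (6 libraries), 0 rows were called, and 11 genes of the whole table against 0 without the block. Only numbers found in both groups carry the comparison in this fit, so its 11 calls rest on 2 pairs. Libraries sharing a number (2 pairs) deviated with a mean correlation of -0.065, and the 7 other pairs with 0.0186.

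Over all genes, leaving out the filter gave 108 calls against 2 for iPSC-Exos against control, 254 against 90 and 280 against 104 for the combined treatment against control and against LIPUS, and 410 against 246 for all libraries with iPSC-Exos against all others. DESeq2 gave 24, 184, 181 and 350 in the same order. Without one library in turn, the 4 counts ranged from 0 to 6, 17 to 122, 15 to 217 and 136 to 331. The 4 comparisons given with 0% rose to 47, 85, 64 and 50 calls unfiltered. The cause was not tested. The Spp1 ratios without each library were chosen after seeing the data. The planned correlations and fold changes gave no value. The 4 rows stayed under the filter's 10 counts. Whether depth or the open pairing of IDs and counts left them there was not tested.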
